A study of Homo sapiens with 6 samples.

Results

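Glycolysis splits glucose into pyruvate, and the genes described here are 45 that carry or regulate that route or that are known targets of HIF-1, namely the sugar and monocarboxylate carriers, the enzymes from hexokinase to lactate dehydrogenase, the kinases that steer the route, the HIF subunits with the prolyl hydroxylases that mark them, and other HIF targets. They were chosen by symbol, and a gene was kept where the array's annotation gave at least 1 probe set that symbol alone. This held for 42 of the 45 among 19775 genes measured. CA9, SLC16A1 and SLC16A3 had no such probe set and were not analysed here. Where a gene had several such probe sets, the brightest on average was used, and values are log2 expression values normalized by RMA, so that a difference of 1 is a 2-fold difference.

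The study asked how forced expression of MBD2, a protein that binds methylated DNA, alters expression in MCF-10A, an immortalized breast epithelial line that is not transformed and was grown in MEGM medium. There were 3 control arrays and 3 arrays of cells infected with an MBD2 lentivirus, which was packaged in HEK293 cells (the labels call this group MBD2 transfection). The series text describes the controls as not infected and the arrays as technical replicates, whereas the methods name an empty virus and biological replicates. The methods also speak of an untreated control where they define changed genes. Nothing in the labels ties an array to a culture of its own, so p-values measure the spread between these arrays only, which may be technical. It is also not stated whether the infected cells were 1 clone, at what oxygen tension the cells grew or how dense they were at harvest. In such bulk RNA, a change in each cell and a change in the share of cells that express a gene cannot be told apart.

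As background, glycolysis runs from glucose uptake through hexokinase and phosphofructokinase, its main point of control, to pyruvate, which lactate dehydrogenase turns into lactate or mitochondria oxidise. HIF-1 is a transcription factor made of an alpha subunit, HIF1A, and the constant partner ARNT. When oxygen is present, prolyl hydroxylases mark the alpha subunit for destruction, and when oxygen is scarce the subunit accumulates and switches on glucose carriers, most glycolytic enzymes, PDK1, BNIP3, VEGFA and the hydroxylases themselves. Much of this control acts on HIF1A protein, which arrays do not measure.

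MBD2 itself read 8.92, 9.03 and 9.68 on control arrays 1 to 3 and 12.17, 11.72 and 12.50 on MBD2 arrays 1 to 3, a 7.57-fold difference (log2 difference 2.92, SE 0.28, adjusted p = 0.0119, limma with Benjamini-Hochberg adjustment), which fits the labels. Another of its 4 probe sets, the brightest without a name ending for shared sequence, gave a log2 difference of 0.11 (adjusted p = 0.636). The arrays were not equally far apart. No member differed by over 2-fold between control arrays 1 and 2 and 1 member did between MBD2 arrays 2 and 3, but 12 of the 42 members did between control arrays 1 and 3, against 7.95% of all genes. Control array 3 and MBD2 array 1 also had the lowest medians of 30 mitosis genes, -1.07 and -0.53 from the control mean, against 0.53 to 1.68 on the other arrays. MBD2 arrays 2 and 3 had lower hybridization controls (9.94 and 10.01) than the other arrays (10.96 to 11.33). The basal markers KRT5, KRT14, ITGA6, ITGB4 and CDH3 had group means from 9.13 to 14.23, with differences of -1.26 for KRT5, -0.56 for KRT14, -0.35 for ITGA6, -1.14 for CDH3 and 0.81 for ITGB4, none of which was called (median -0.56). The 4 endothelial and the 5 HEK293 markers stayed at group means of 3.46 to 5.99. Of the 6 fibroblast markers, DCN, LUM and COL3A1 were highest on MBD2 array 1 (12.57, 9.63 and 8.90), where the list's median lay 1.83 above the control mean, against -0.31 to 0.16 on the other arrays. On control arrays 1 to 3 DCN read 9.74, 9.60 and 8.43, LUM 7.48, 8.03 and 7.08, and COL3A1 5.28, 5.21 and 4.84. On MBD2 arrays 2 and 3 DCN read 7.59 and 8.54, LUM 4.03 and 6.27, and COL3A1 4.99 and 4.92. COL1A1 was above the controls on all MBD2 arrays (10.60, 10.61 and 9.75 against 9.35, 9.07 and 8.69). COL1A2 and PDGFRA were not highest on MBD2 array 1 (5.92 and 5.55), and no fibroblast marker was called. Among 3 leukocyte markers CD14 was called lower (log2 difference -3.07, adjusted p = 0.0416), and among 5 luminal markers the keratin KRT8 was called higher (2.02, adjusted p = 0.0397). The other luminal markers were not called, with differences of 1.66 for KRT18, -0.32 for ESR1, -0.51 for GATA3 and -0.02 for PGR, and the median of the 5 was -0.02. The part of these features in the results below was not tested.

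In the MBD2 arrays 4 members rose, namely the mitochondrial protein BNIP3, the pyruvate dehydrogenase kinase PDK1, the enolase ENO1 and the bifunctional enzyme PFKFB4, and none fell. A gene was called at an adjusted p under 0.05, taken over all 19775 genes, and a fold of at least 1.5, and 1.25% of all genes were called higher and 1.5% lower by that rule. At an unadjusted p under 0.05 the limma fit had 16 members higher, where 8.69% of all genes were higher, and 2 lower (SLC2A1 and NDRG1), where 9.59% were lower. The 3 MBD2 arrays all lay above the 3 control arrays for 18 members, as they did for 10.4% of all genes. They all lay below for 3 members, SLC2A1, NDRG1 and BHLHE40, as they did for 14.6% of all genes, and in the remaining 21 members the groups overlapped. The median log2 difference of the 42 members was 0.36, with a range from -1.58 to 2.15, beside a median of -0.02 over all genes. On the single MBD2 arrays the members' median stood at 0.34, 0.30 and 0.34 above the control mean, while on the control arrays it lay between -0.05 and 0.07. Of the members, 28 had a positive and 14 a negative difference, and 12 were at least 2-fold apart, as 7.58% of all genes were.

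Many members read high on these arrays, so the same counts were taken at high levels. Of 1203 genes with a mean of at least 11, the MBD2 arrays all lay above the controls in 16.0% and all below in 12.2%, and the median difference was 0.04. The 22 members at this level had a median of 0.28, and 9 of them (40.9%) lay above and 2 (9.09%) below.

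The calls are not stable with the arrays used. With each of the 2 nearly alike pairs (control arrays 1 and 2, MBD2 arrays 2 and 3) merged to its mean, limma called no gene at all, member or other. Without control array 1, or without control array 2, no member was called, whereas without MBD2 array 1 there were 9 members higher and 3 lower, in a fit that called 9.62% of all genes higher and 5.68% lower.

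**Figure D1:**
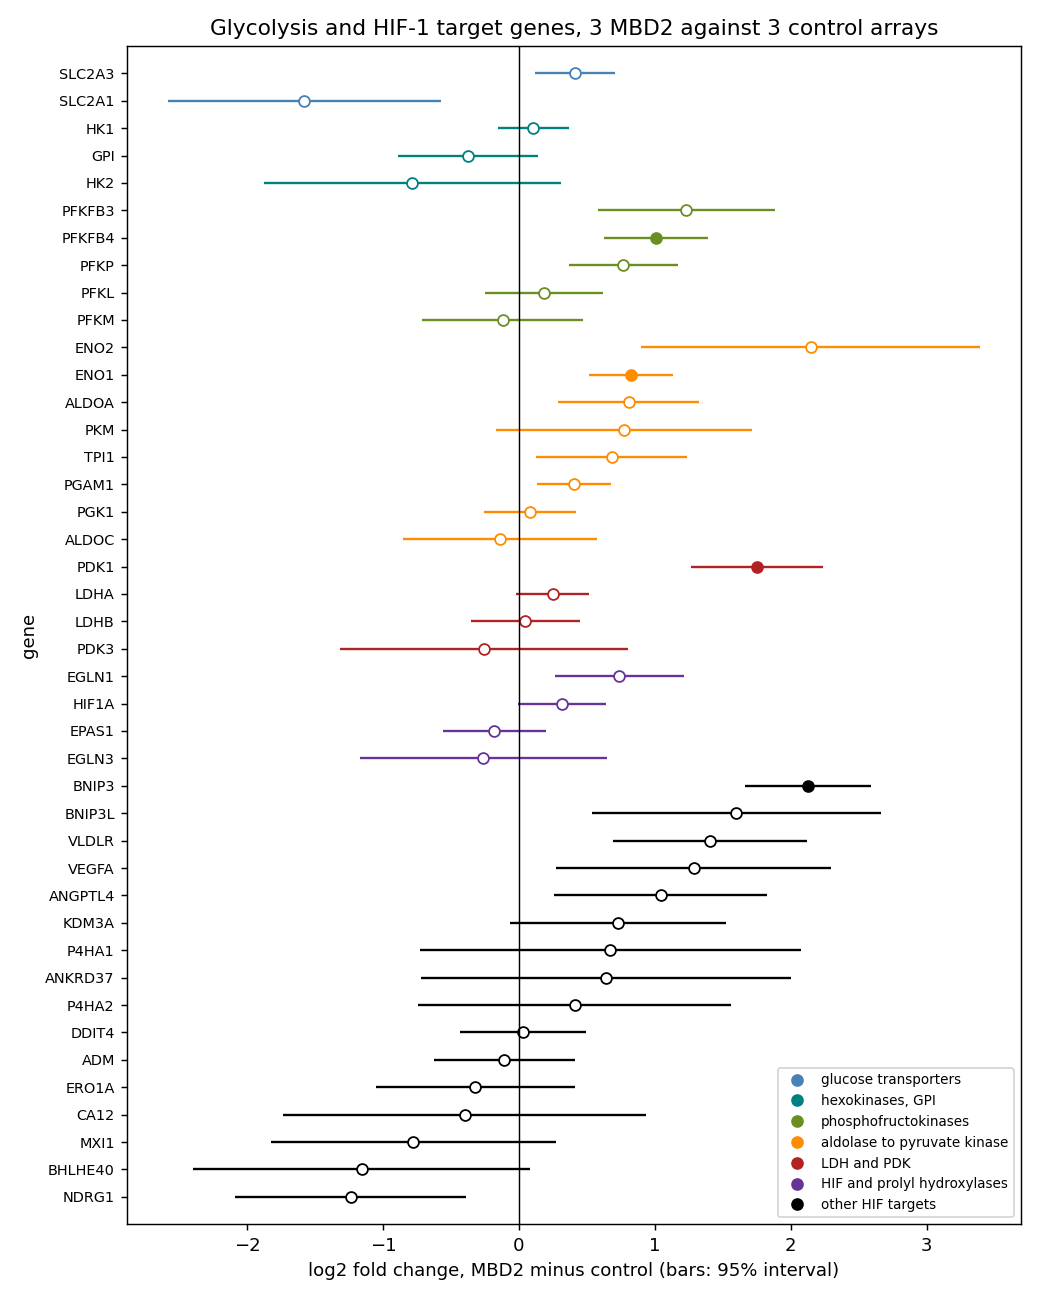
The log2 difference of each of the 42 genes, MBD2 minus control, is plotted on the horizontal axis with its 95% interval as a bar, and the genes are grouped and coloured by role. Filled points mark the 4 genes called higher (BNIP3, PDK1, ENO1 and PFKFB4), and the points run from -1.58 for SLC2A1 to 2.15 for ENO2.

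BNIP3, a protein of the outer mitochondrial membrane that marks mitochondria for autophagy, had the lowest adjusted p of the members. It read 10.25, 10.31 and 10.44 on control arrays 1 to 3 and 12.20, 12.35 and 12.85 on MBD2 arrays 1 to 3. The groups were far apart and the controls were close together. The difference was 4.37-fold (log2 2.13, SE 0.19, 95% interval 1.66 to 2.59, adjusted p = 0.0101), and a further BNIP3 probe set gave 1.95. Its adjusted p ran from 0.00373 to 0.0792 as each array was left out in turn, and it lost the call without control array 1 and without control array 2. It was the single member still called with the replicate number as a block (adjusted p = 0.048).

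PDK1 phosphorylates and so inactivates pyruvate dehydrogenase, the mitochondrial enzyme that turns pyruvate into acetyl-CoA. Its values were 7.69, 7.61 and 7.29 in the controls and 8.92, 9.42 and 9.50 in the MBD2 group. Every MBD2 array was over 1 log2 unit above every control. This is a 3.37-fold difference (log2 1.75, SE 0.20, adjusted p = 0.0166). The other PDK1 probe sets gave 0.27 and 0.08, and the mean of the 3 gave 0.70, which was still called (adjusted p = 0.0301). The call was lost without any 1 of control arrays 1 and 2 and MBD2 arrays 2 and 3 (adjusted p from 0.00375 to 0.0975 over the arrays left out) and with the replicate block (0.0942).

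ENO1 encodes the widely expressed enolase, which makes phosphoenolpyruvate. It read 12.44, 12.19 and 12.42 in the controls against 13.06, 13.32 and 13.14, so that the groups were apart by more than the spread within either. The difference was 1.77-fold (log2 0.82, SE 0.13, adjusted p = 0.0366). Its other probe sets gave 1.501, 0.34 and 0.05. The last is the only ENO1 probe set with no ending for shared sequence, read between 4.19 and 4.49, and under that choice of probe set ENO1 was not called (adjusted p = 0.862). ENO1 kept the call in leave-one-out fits only without MBD2 array 1 (adjusted p from 0.0137 to 0.160), and lost it with the mean of the probe sets (0.101) and the block (0.131).

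PFKFB4, which makes and removes fructose 2,6-bisphosphate, the activator of phosphofructokinase, had the values 6.58, 6.59 and 6.38 in the controls and 7.68, 7.24 and 7.66 in the MBD2 arrays. The groups were again separate, 2.01-fold apart (log2 1.01, SE 0.16, adjusted p = 0.0372). A second probe set gave -0.09, and the mean of the pair gave 0.46 (adjusted p = 0.0782). It too kept the call only without MBD2 array 1 when single arrays were left out (adjusted p from 0.0204 to 0.167), and lost it with the block (0.117).

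**Figure D2:**
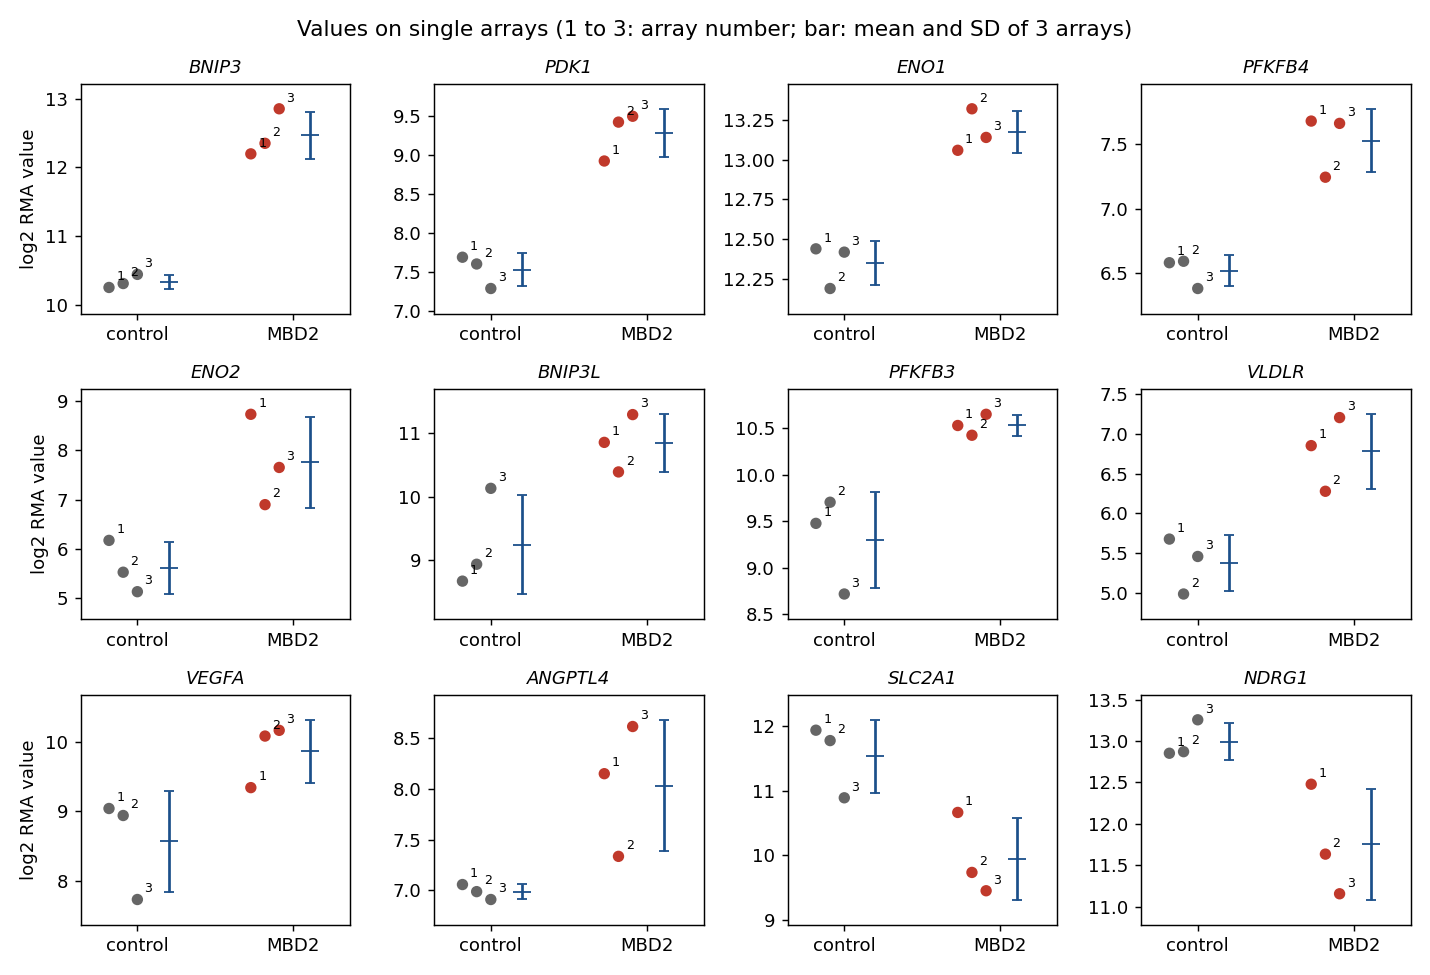
Each panel plots the log2 value of a gene on the 3 control (grey) and 3 MBD2 arrays (red), numbered 1 to 3, with the group mean and SD beside the points. BNIP3 stands at 10.25 to 10.44 in the controls and 12.20 to 12.85 in the MBD2 arrays, while VEGFA and BNIP3L are spread by control array 3, and SLC2A1 and NDRG1 run the other way.

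HIF-1 binds DNA at a short core, ACGTG or GCGTG, and the promoters of the called genes are shown with those of LDHA and PGK1, long known HIF targets that were not called. The windows hold 250 bases before and 50 after a start site in RefSeq (GRCh38.p14), and the stretches below lie before the start. Capitals mark either core on either strand, and a core on the strand that is not printed appears here as CACGT or, for the other core, as CACGC. A match that reads the same on both strands, as CACGTG does, counts on each. The LDHA stretch shows only the upstream matches nearest the start, and its full window held 5 matches to ACGTG.
BNIP3, chr10:131982013-131982076, minus strand: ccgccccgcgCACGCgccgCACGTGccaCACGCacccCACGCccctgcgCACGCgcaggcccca
PDK1, chr2:172556063-172556089, plus strand: tgctgcccgcCACGTccctCACGTacc
ENO1, chr1:8878744-8878862, minus strand: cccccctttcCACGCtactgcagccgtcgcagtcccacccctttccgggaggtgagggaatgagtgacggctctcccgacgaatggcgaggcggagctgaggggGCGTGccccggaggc
PFKFB4, chr3:48556955-48556979, minus strand: agttgggcatGCGTGgtcggaggcc
LDHA, chr11:18394466-18394504, plus strand: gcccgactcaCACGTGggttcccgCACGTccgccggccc
PGK1, chrX:78104027-78104079, plus strand: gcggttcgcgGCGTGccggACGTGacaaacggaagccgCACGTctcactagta

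The BNIP3 stretch, from 153 to 90 bases before the start, held 2 matches to ACGTG and 4 to GCGTG, and the PDK1 stretch, which ends at the base before the start, held 2 to ACGTG. Of the 42 members, 38 had a promoter in the table. ACGTG was found in 22 of them (57.9%), against 28.8% of the 15384 measured genes with a promoter there, and GCGTG in 25 (65.8%), against 50.6%. Either core was found in 35 members (92.1%) and in 62.3% of all genes. A gene can have several windows, and members had 64 in all, which adds to a share counted per gene. Counted per window, ACGTG was in 40.6% of the members' windows against 23.3% of the 21490 windows of all genes, GCGTG in 46.9% against 43.2%, and either core in 70.3% against 55.0%. The members' promoters were also richer in CpG, with a median of 31.5 per 300 bases against 25.0, and in G and C (70.67% against 64.67%), and the part of base composition in these shares was not tested. All 4 called genes had a match, as did LDHA and PGK1 and most members whose groups overlapped. A match describes the letters only. Part of the list was chosen as known targets of HIF-1, so the higher shares of its core are no independent finding.

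The glucose carriers had differences of opposite sign. SLC2A1 encodes GLUT1, the basal glucose carrier of most cells. It read 11.93, 11.77 and 10.89 in the controls and 10.66, 9.74 and 9.45 in the MBD2 arrays, with control array 3 nearest to the MBD2 group and no overlap. The difference was 2.99-fold lower in the MBD2 group (log2 -1.58, SE 0.41, 95% interval -2.58 to -0.58), which did not pass the test (adjusted p = 0.119). The second SLC2A1 probe set gave -2.68, and the adjusted p fell to 0.0194 without MBD2 array 1. SLC2A3, or GLUT3, the carrier with high affinity for glucose that neurons use, read 5.24, 5.18 and 4.97 against 5.66, 5.46 and 5.51. Its small difference (log2 0.41, SE 0.12, adjusted p = 0.155) did not pass, although the groups did not overlap. Its 4.97 on control array 3 was the lowest value of any member, and the array's Trpn probe sets, which detect a control RNA, reached at most 3.67.

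Hexokinase phosphorylates glucose on entry. HK1, the constitutive form, differed little, with 12.14, 12.01 and 12.15 in the controls and 12.18, 12.32 and 12.12 in the MBD2 arrays (log2 0.11, SE 0.11, 95% interval -0.15 to 0.37, adjusted p = 0.648). HK2, the inducible form and a HIF target, read 11.71, 11.75 and 11.24 against 11.68, 10.76 and 9.91. MBD2 array 1 lay among the controls and the other MBD2 arrays below them. The difference of -0.78 (SE 0.45, adjusted p = 0.413) did not pass, passed without MBD2 array 1 (log2 -1.23, adjusted p = 0.0478), and was -0.06 with the mean of its 3 probe sets. Glucose phosphate isomerase, GPI, also had a negative difference (log2 -0.38, SE 0.21, adjusted p = 0.402) with overlapping groups. None of these 3 genes at the head of the route was called.

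The phosphofructokinase step held PFKFB4 and a further pair of members with separate groups. PFKP, the platelet form of the enzyme, had 11.26, 11.02 and 11.08 in the controls and 11.59, 12.07 and 12.00 in the MBD2 arrays (log2 0.77, SE 0.16, adjusted p = 0.078). It passed without MBD2 array 1 (log2 0.92, adjusted p = 0.00973). A second PFKP probe set gave -0.13, and the mean of the pair gave 0.32 (adjusted p = 0.273). PFKFB3, the inducible maker of fructose 2,6-bisphosphate, read 9.48, 9.70 and 8.72 against 10.53, 10.42 and 10.65. The MBD2 arrays agree closely here and the spread is in the controls. Its 2.35-fold difference (log2 1.23, SE 0.26, adjusted p = 0.0797) did not pass, and passed without control array 3 (log2 0.94, adjusted p = 0.0385). The liver and muscle forms PFKL and PFKM overlapped between groups (log2 0.19 and -0.12, adjusted p = 0.632 and 0.841). The median difference of these 5 genes was 0.77.

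From aldolase to pyruvate kinase, 7 of 8 members had a positive difference, where 9303 of all 19775 genes had one. The median of the 8 was 0.73. In 5 of the 8 all MBD2 arrays lay above all controls, as in 10.4% of all genes. ENO1 alone was called, where 1.25% of all genes were called higher. ALDOA, the main aldolase, read 11.86, 11.60 and 12.21 in the controls and 12.41, 12.75 and 12.94 in the MBD2 arrays (log2 0.81, SE 0.21, adjusted p = 0.121), and its 2 other probe sets gave 0.79 and 0.96. It passed without MBD2 array 1 (log2 0.95, adjusted p = 0.0339). Its brain isozyme ALDOC had 7.37, 7.01 and 8.12 against 7.39, 7.19 and 7.51 (log2 -0.14, adjusted p = 0.847), with control array 3 the highest. The isozymes thus had differences of opposite sign, neither of which passed.

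Triose phosphate isomerase, TPI1, read 11.38, 11.25 and 11.53 against 11.59, 12.31 and 12.32 (log2 0.68, SE 0.23, adjusted p = 0.194), so that MBD2 array 1 was barely above the controls and the other MBD2 arrays well above. It passed without MBD2 array 1 (log2 0.93, adjusted p = 0.00975). PGAM1, the mutase before enolase, had 13.07, 13.12 and 13.22 against 13.41, 13.62 and 13.62 (log2 0.41, SE 0.11, adjusted p = 0.134). PGK1, the first enzyme of the route to yield ATP, was at 13.67, 13.72 and 13.41 against 13.86, 13.56 and 13.62. It stood apart from its neighbours in the route in having overlapping groups and a difference near 0 (log2 0.08, SE 0.14, 95% interval -0.26 to 0.42), whose sign turned without control array 3 (-0.01).

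ENO2, the neuronal enolase, had the largest difference of the 42 members. It read 6.17, 5.53 and 5.14 in the controls and 8.73, 6.90 and 7.65 in the MBD2 arrays. All MBD2 arrays were above all controls, with MBD2 array 1 more than 1 log2 unit above the other MBD2 arrays. The 4.43-fold difference (log2 2.15, SE 0.51, 95% interval 0.90 to 3.39) did not pass (adjusted p = 0.0991), and without MBD2 array 1 it was smaller and passed (log2 1.66, adjusted p = 0.0385). PKM, pyruvate kinase, had 11.31, 10.82 and 10.81 against 10.90, 12.20 and 12.17. MBD2 array 1 lay within the controls and over 1 log2 unit below the other MBD2 arrays, and the difference of 0.77 (SE 0.39, adjusted p = 0.353) passed without it (log2 1.20, adjusted p = 0.0144). The second PKM probe set gave -0.16.

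GAPDH, which acts between TPI1 and PGK1, is used to scale quantitative PCR and was set apart from the members. It read 13.24, 13.02 and 13.34 in the controls and 13.74, 14.03 and 14.16 in the MBD2 arrays, all above (log2 0.78, SE 0.16, 95% interval 0.40 to 1.16, adjusted p = 0.0666). Without MBD2 array 1 it passed (log2 0.90, adjusted p = 0.0142). The array's own control probe sets for GAPDH gave 0.71 at the 3 prime end, 0.80 in the middle and 1.22 at the 5 prime end. For beta-actin, ACTB, they gave 0.40 and 0.84 at the 3 prime and 5 prime ends. The gap from the 3 prime to the 5 prime probe set is a measure of RNA integrity and labelling. For GAPDH it was 1.83 to 2.52 in the controls and 1.49 to 1.84 in the MBD2 arrays. For ACTB it was larger, 3.62 to 4.57 in the controls and 3.44 to 3.93 in the MBD2 arrays. The part of these gaps in the differences was not tested. Scaled to 18 housekeeping genes other than GAPDH, 2 members were called higher, PDK1 and BNIP3, and the median of the members was 0.30. The housekeeping genes were not steady themselves, with differences from -1.19 to 0.96 and a median of 0.21, though none was called. Their medians on MBD2 arrays 1 to 3 were -0.26, 0.29 and 0.33 from the control mean.

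At the end of the route, LDHA, which reduces pyruvate to lactate, read 14.23, 14.18 and 14.05 against 14.28, 14.46 and 14.46. The MBD2 arrays were all above, by little (log2 0.25, SE 0.11, adjusted p = 0.303). The highest value on any array was 14.74, so LDHA read near the top of the range. The part of this in its small difference was not tested. LDHB, the form that favours pyruvate, had 14.00, 14.00 and 13.69 against 13.71, 14.18 and 13.94, and its difference of 0.05 (SE 0.16, adjusted p = 0.912) turned to -0.02 when the arrays were scaled to housekeeping genes. PDK3, a relative of PDK1, had 9.41, 9.35 and 10.46 against 10.21, 9.21 and 9.02 (log2 -0.26, SE 0.43, adjusted p = 0.804). Of the measured kinases and dehydrogenases here, PDK1 alone was called.

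HIF1A, the oxygen-regulated subunit, read 13.16, 13.21 and 12.91 in the controls and 13.56, 13.31 and 13.36 in the MBD2 arrays. The MBD2 arrays were all above, by a 1.25-fold difference that did not pass (log2 0.32, SE 0.13, adjusted p = 0.284). EPAS1, which encodes the related HIF-2 alpha, had 12.13, 12.34 and 12.52 against 12.35, 12.09 and 12.00 (log2 -0.18, SE 0.15, adjusted p = 0.592) with overlap. EGLN1, the main oxygen-sensing prolyl hydroxylase, had 10.93, 10.86 and 11.50 against 11.86, 11.72 and 11.91. Its MBD2 arrays were all above (log2 0.74, SE 0.19, adjusted p = 0.121), and it passed without control array 3 (log2 0.94, adjusted p = 0.0298). EGLN3, a hydroxylase that hypoxia induces, was at 5.85, 5.91 and 7.18 against 6.19, 5.92 and 6.05 (log2 -0.26, SE 0.37, adjusted p = 0.764), with control array 3 alone raised.

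Of the 16 other HIF targets measured, 1 (BNIP3) was called, 5 had all MBD2 arrays above and 2 all below, and the median difference was 0.52. Over all genes the shares were 1.25% called higher, 10.4% all above and 14.6% all below. BNIP3L, or NIX, the relative of BNIP3 with the same role in mitophagy, read 8.67, 8.93 and 10.13 in the controls and 10.85, 10.39 and 11.29 in the MBD2 arrays. On this probe set it was thus higher on every MBD2 array, as BNIP3 was, but control array 3 was close to them (log2 1.60, SE 0.43, adjusted p = 0.133), and it passed without that array (log2 2.04, adjusted p = 0.0375). The other BNIP3L probe set gave 0.96, with MBD2 array 2 (9.00) below control array 3 (9.26). VLDLR, a lipoprotein receptor, had 5.68, 4.98 and 5.46 against 6.85, 6.28 and 7.21 (log2 1.41, SE 0.29, adjusted p = 0.0731), with separate groups. ANGPTL4, a secreted inhibitor of lipoprotein lipase, had 7.06, 6.99 and 6.91 against 8.15, 7.34 and 8.61. Its controls were within 0.07 of their mean by SD and its MBD2 arrays were scattered (SD 0.65), so that the 2.06-fold difference did not pass (adjusted p = 0.169).

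VEGFA, the growth factor of blood vessels and a classical HIF target, read 9.04, 8.94 and 7.74 in the controls and 9.34, 10.08 and 10.16 in the MBD2 arrays. The groups did not overlap, and control array 3 was over 1 log2 unit below the other controls. The difference of 1.29 (SE 0.41, adjusted p = 0.184) was 0.87 without that array (adjusted p = 0.19). With the mean of the gene's probe sets it was 0.52. ADM, the vasodilator peptide adrenomedullin, did not follow VEGFA, with 11.54, 11.37 and 11.12 against 11.63, 10.98 and 11.10 (log2 -0.11, SE 0.21, adjusted p = 0.839).

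NDRG1 and BHLHE40, both hypoxia-induced in many cells, were lower on every MBD2 array than on any control. NDRG1, a stress-responsive protein of differentiating epithelia, had 12.85, 12.87 and 13.26 against 12.48, 11.63 and 11.16. The difference was 2.36-fold (log2 -1.24, SE 0.35, 95% interval -2.09 to -0.39, adjusted p = 0.141), and it passed without MBD2 array 1 (log2 -1.60, adjusted p = 0.00913). BHLHE40, a transcriptional repressor also known as DEC1, had 11.25, 11.19 and 12.99 against 10.95, 10.52 and 10.48. Much of that difference lay in control array 3, since log2 -1.16 (SE 0.51, adjusted p = 0.299) became -0.57 without it (adjusted p = 0.185). The other BHLHE40 probe set gave -0.40 with overlapping groups, and the mean of its probe sets gave -0.78. DDIT4, an inhibitor of mTORC1, had a difference of 0.03 (SE 0.19), which turned to -0.03 with housekeeping scaling. ERO1A, an oxidase of the endoplasmic reticulum, had one of -0.32 (SE 0.30, adjusted p = 0.622).

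**Figure D3:**
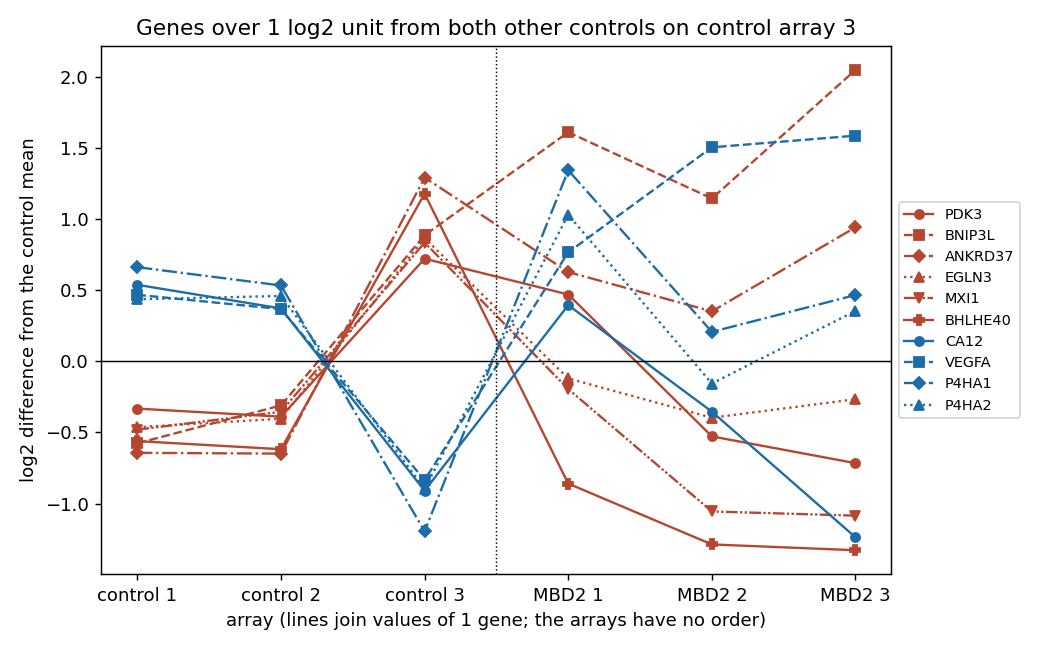
For the 10 genes in which control array 3 lay over 1 log2 unit from both other controls, the log2 difference from the control mean is plotted for each array. The 6 genes raised on that array (red) and the 4 lowered (blue) do not share a direction on the MBD2 arrays, where BNIP3L stands at 1.61, 1.14 and 2.05 and BHLHE40 is below the control mean throughout.

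Control array 3 stood apart in 10 of the members. On it 6 members were over 1 log2 unit above both other controls (PDK3, BNIP3L, ANKRD37, EGLN3, MXI1 and BHLHE40), where 2.69% of all genes were, and 4 were as far below (CA12, VEGFA, P4HA1 and P4HA2), where 3.81% were. P4HA1 and P4HA2 encode collagen prolyl hydroxylases. P4HA1 read 12.18, 12.05 and 10.32 in the controls and 12.86, 11.72 and 11.98 in the MBD2 arrays (log2 0.67, SE 0.57), and P4HA2 read 11.77, 11.80 and 10.44 against 12.37, 11.18 and 11.69 (log2 0.41, SE 0.47). Without control array 3 their differences were 0.07 and -0.04.

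ANKRD37, a small ankyrin protein, had 6.44, 6.43 and 8.37 against 7.71, 7.43 and 8.03, and its difference passed only without that array among the single arrays left out (log2 0.64 with it and 1.29 without, adjusted p = 0.596 and 0.0433). MXI1, which opposes MYC, had 8.44, 8.57 and 9.76 against 8.73, 7.87 and 7.84 (log2 -0.78, SE 0.43, adjusted p = 0.396). CA12, a carbonic anhydrase at the cell surface, had 13.23, 13.06 and 11.78 against 13.09, 12.34 and 11.46 (log2 -0.40, SE 0.55, adjusted p = 0.752). KDM3A, a histone demethylase, did not depart on control array 3 by that measure and had a difference of 0.73 (SE 0.32, adjusted p = 0.304) with overlap. On MBD2 array 1 only ENO2 was as far above and PKM as far below the other arrays of its group, where 4.11% and 7.06% of all genes were.

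Left out together, control array 3 and MBD2 array 1 leave pairs that are nearly alike, and 16 members were then called higher and 7 lower, in a fit that called 16.7% of all genes higher and 10.7% lower. The members' median was then 0.21. By the fold rule of the study's methods, over 1.5-fold against the control mean on each MBD2 array with no test, 10 members were higher (ENO1, ENO2, PDK1, PFKFB3, PFKFB4, BNIP3, BNIP3L, VEGFA, EGLN1 and VLDLR) and none had a ratio under 0.5 on all 3. Of all genes 3.47% and 1.81% passed these rules. The paper's list of repressed genes came from another rule, with a milder fold and a p-value, which was not applied here.

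Beyond the members, 73 other genes of glycolysis, pyruvate and glycogen handling, oxygen sensing and the hypoxia response were measured. Of these 1 rose and 1 fell, 14 had all MBD2 arrays above and 10 all below, and the median difference was 0.07. The shares over all genes given above were 1.25% higher and 1.5% lower, and 10.4% above and 14.6% below. ARNT2, a partner subunit that can stand in for ARNT, rose from 4.62, 4.79 and 4.66 to 6.48, 5.99 and 6.68 (log2 1.69, SE 0.19, adjusted p = 0.0172). SLC16A7, the monocarboxylate carrier MCT2, which takes up lactate and pyruvate, fell from 11.28, 11.42 and 11.12 to 9.79, 9.00 and 8.52, a 4.5-fold difference (log2 -2.17, SE 0.32, adjusted p = 0.0352). Neither was called without control array 1 or without control array 2. SLC16A7 was also lost without control array 3, MBD2 array 2 or MBD2 array 3, and ARNT2 without MBD2 array 3.

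Of the sugar carriers in the wider list, SLC2A12 was lower on all MBD2 arrays and SLC2A6 overlapped, and neither passed. SLC2A12, or GLUT12, read 8.77, 8.72 and 8.71 in the controls and 7.90, 5.81 and 6.26 in the MBD2 arrays (log2 -2.08, SE 0.53, adjusted p = 0.115). SLC2A6, or GLUT6, had 6.12, 5.99 and 5.51 against 6.67, 5.73 and 5.88 (log2 0.22, adjusted p = 0.745). Basigin, BSG, the chaperone that brings monocarboxylate carriers to the membrane, had 9.86, 9.73 and 9.04 against 8.70, 8.21 and 8.14 (log2 -1.19, SE 0.27, adjusted p = 0.0881), with separate groups. No test compared these genes with SLC2A1.

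**Figure D4:**
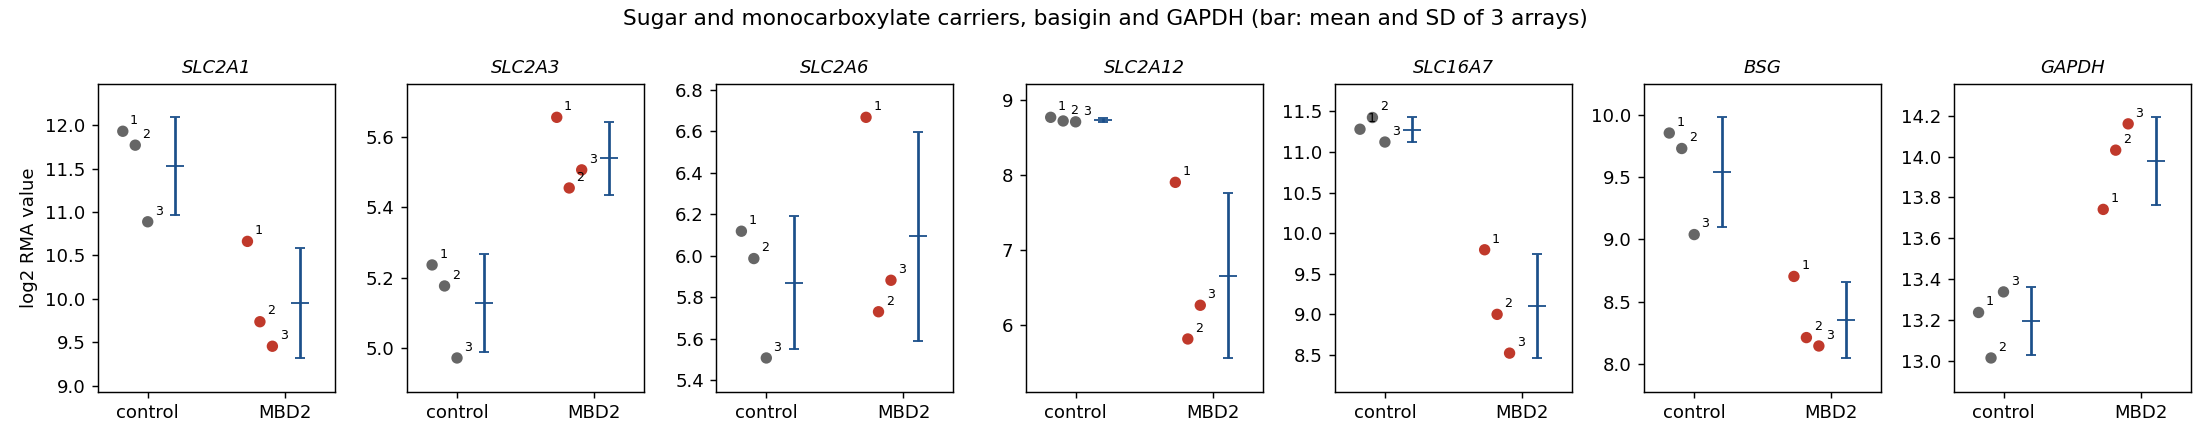
The panels plot the log2 values of 4 sugar carriers, the monocarboxylate carrier SLC16A7, basigin (BSG) and GAPDH on the 3 control (grey) and 3 MBD2 arrays (red), with group mean and SD, each panel on its own scale. SLC2A1, SLC2A12, SLC16A7 and BSG are lower on all MBD2 arrays, SLC2A3 and GAPDH are higher, SLC2A6 overlaps, and SLC16A7 alone of these passed the test (log2 -2.17).

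The remaining genes of the wider list that were at least 2-fold apart did not pass the test either. Higher in the MBD2 group were the hexokinase-like HKDC1 (log2 1.05), the stanniocalcins STC1 (1.03) and STC2 (2.31), the lysyl oxidase LOXL2 (2.25), the hydroxylase JMJD6 (1.39) and the nuclear receptor RORA (1.33). Of these, STC1 was nearest to the threshold, with 9.05, 9.03 and 8.91 against 10.32, 9.66 and 10.11 (adjusted p = 0.0511). Control array 3 lay well below control arrays 1 and 2 for STC2 (7.05 against 9.24 and 9.32) and LOXL2 (6.26 against 9.45 and 9.10). RORA overlapped between the groups. Lower were PFKFB2 (-1.24), a relative of PFKFB3 and PFKFB4 known from heart, the glycogen regulator PPP1R3C (-1.23) and the mitochondrial protein FAM162A (-1.16). PPP1R3C overlapped between the groups, with control array 3 at 10.27 and control arrays 1 and 2 at 7.65 and 7.62. PFKFB2 read 10.06, 10.12 and 10.45 against 9.77, 8.60 and 8.53 (adjusted p = 0.147), so that the forms of this enzyme did not share a sign.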

How the data were processed

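Total RNA of 3 control and 3 MBD2 samples of MCF-10A was hybridised to 6 Affymetrix Human Genome U133 Plus 2.0 arrays. The authors deposited a log2 value per probe set and array after RMA normalization (RMA and affy per the submitters' processing notes, versions not given in the sources used here). Groups came from the treatment label. Of 54675 probe sets, 41091 had a single symbol in the platform table, 1801 several and 11721 none, and 62 were array controls. The brightest probe set was kept for each of 19775 genes, and 22 of the 42 members' probe sets have a name ending for shared sequence (_s_at, _x_at or _a_at), which can also bind related transcripts or pseudogenes. Genes were compared by limma 3.58.1 in R 4.3.3 (lmFit, eBayes, group only, 1.96 prior degrees of freedom), and p-values were adjusted by the Benjamini-Hochberg method across the whole table. The fit was tested on simulated data. Differences are MBD2 minus control means. Alternatives changed the probe set, the filter, the scaling, the variance model, the arrays used, the block and the fold. Members, related lists, tests and alternatives were chosen with earlier results of these data known. Values on all arrays were printed for called members, for members with separate groups and a 1.5-fold difference, for isozymes, carriers and genes fixed by name, and for members that departed on control array 3 or MBD2 array 1. The values of STC1, PFKFB2 and SLC2A6 were added after they were seen. The number of arrays limits the precision.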

Additional observations from a re-analysis of the deposited data

How the results depend on the processing

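The count of 4 members higher was 2 with a gene's probe sets averaged and with housekeeping scaling, 16 without control array 3 and MBD2 array 1, 0 with near-identical arrays averaged, 10 by the methods' fold rule and 0 to 9 with each array left out. Members lower (0) became 7 without those 2 arrays and 0 to 3 with single arrays left out. For related genes, 1 higher became 2 at a mean of at least 5, 20 without the 2 arrays, 0 with averaged arrays, 5 by the fold rule and 0 to 10 with single arrays left out. The 1 lower became 2 with housekeeping scaling and with further quantile normalization, 11 without the 2 arrays, 0 with averaged arrays and 0 to 6 with single arrays left out. The members' median of 0.36 was 0.25 with averaged probe sets, 0.15 over the 25 members that have a probe set without a shared-sequence ending, 0.30 with housekeeping scaling, 0.21 without the 2 arrays and 0.21 to 0.37 with single arrays left out. The cause of these shifts was not tested.

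The sign of 11 members' differences turned under an alternative, and none of them was called over all 6 arrays. Without control array 3 and MBD2 array 1 these were ALDOC (0.16), PGK1 (-0.099), EGLN3 (0.10), P4HA1 (-0.26) and P4HA2 (-0.35). Housekeeping scaling turned LDHB (-0.017) and DDIT4 (-0.033), averaged arrays turned CA12 (0.027) and ADM (0.049), averaged probe sets turned PDK3 (0.044), and probe sets without a shared ending turned P4HA1 (-0.014). With single arrays left out, the differences ran from -0.27 to 0.14 for PFKM, -0.38 to 0.17 for ALDOC, -0.012 to 0.14 for PGK1, -0.069 to 0.16 for LDHB, -0.62 to 0.10 for PDK3, -0.85 to 0.021 for CA12, -0.31 to 0.022 for ADM, -0.49 to 0.17 for EGLN3, -0.038 to 0.69 for P4HA2 and -0.13 to 0.20 for DDIT4.

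With the replicate number as a block, 1 member was higher (BNIP3), no related gene was higher or lower (0 and 0), and no member was lower. Deviations of same-numbered arrays from their group means correlated at 0.17, -0.27 and 0.21, and not every array correlated best with its own number. Each mean is of 3 arrays, and control array 3 and MBD2 array 1 stand apart in their groups. These correlations therefore cannot decide whether the numbers pair the samples.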
